A study of Rattus with 6 samples.

Results

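The genes described here encode the nuclear share of the oxidative phosphorylation machinery, the enzyme complexes I to V of the inner mitochondrial membrane. Members were the protein-coding rows of the deposited gene table whose symbols belong to the naming families of the subunits (Nduf, Sdh, Uqcr, Cyc1, Cox and Atp5), with symbols that begin with LOC left out. This gave 86 of 16690 genes, of which 38 belonged to complex I, 4 to complex II, 9 to complex III, 17 to complex IV and 18 to complex V. Names alone chose the members, and no measured value was used. Ndufa4 and Ndufa4l2 carry complex I names but were placed with complex IV, where the Ndufa4 protein is found. The families also hold genes that are not subunits in the strict sense, such as Atp5if1, the inhibitor protein of ATP synthase, placed with complex V.

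Complex I takes electrons from NADH and complex II takes them from succinate, and both pass them through ubiquinone to complex III. Cytochrome c then carries them to complex IV, which reduces oxygen, and the protons pumped along the way drive complex V, the ATP synthase. A few core subunits of complexes I, III, IV and V are encoded by mitochondrial DNA, while the nuclear genes supply all other subunits and the whole of complex II. Marrow stromal cells are known to lean on glycolysis when undifferentiated and to raise oxidative phosphorylation as they form bone.

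RNA was sequenced from mesenchymal stem cells (plastic-adherent stromal cells) that had been isolated from femur and tibia marrow of wild-type Sprague Dawley rats and used at passages 3 to 5. A chronic kidney disease (CKD) model gave 3 libraries and healthy animals gave the 3 control libraries. The study asks which transcripts differ in the stem cells of diseased animals, in a series concerned with their vesicles and with vascular calcification. How the disease was induced, and the age and sex of the animals, are not given in the sources used here, and nothing ties each library to an animal of its own, so every p-value rests on a spread between libraries that could be technical in part. The labels name RNA of the cells in one place and RNA of exosomes in another. Values are FPKM (fragments, scaled to gene length and library depth), and bulk values cannot tell fewer cells of a type from less RNA per cell.

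Libraries held between 34404037 and 46892613 recovered fragments. The disease model tag goes against the title in CKD replicate 1, which is tagged as control, and in control replicate 2, which is tagged as CKD. Across all tested genes the highest correlations joined CKD replicate 2 with CKD replicate 3 (Pearson r = 0.996) and control replicate 2 with control replicate 3 (r = 0.998), while CKD replicate 1 was closest to control replicate 1 (r = 0.967). Of the 12 stromal markers, Thy1 lay between 505 and 572 FPKM in CKD and between 590 and 801 FPKM in control libraries. Itgb1 lay between 847 and 1098 FPKM in CKD and between 985 and 1204 FPKM in control libraries. Col1a1 and Col1a2 were higher still in every library. Cd44 lay between 73.2 and 91.2 FPKM in CKD and between 56.8 and 62.5 FPKM in control libraries. Several others were low or uneven between libraries. Eng had 10.8, 20.4 and 21.8 FPKM in CKD and 11.8, 83.4 and 88.8 FPKM in control libraries, and Nt5e had 8.79, 38.8 and 36.4 FPKM in CKD and 8.53, 15.9 and 16.1 FPKM in control libraries. Vcam1 did not pass 8.78 FPKM, and Lepr, a marker of stromal cells in the marrow itself, did not pass 0.246 FPKM. The 16 haematopoietic markers summed to 63.9, 1089 and 752 FPKM in CKD replicates 1, 2 and 3 and to 132, 13.5 and 10.4 FPKM in control replicates 1, 2 and 3. For each of the 16, CKD replicates 2 and 3 were the highest libraries, an order that was not counted over all tested genes. Ptprc, which encodes the CD45 antigen that the cultures are stated to lack, had 15.5 and 11.4 FPKM in CKD replicates 2 and 3 and at most 1.33 FPKM in the other libraries.

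The subunit genes were among the most abundant transcripts of these cells and differed little between CKD and control. Of the 85 members that passed the filter on low values (at least 1 FPKM in at least 3 libraries), 43 lay in the top 10% of all tested genes by mean level, at or above 59.4 FPKM. Summed over all 86 members, they took 1.65%, 1.76% and 1.70% of the FPKM in CKD replicates 1, 2 and 3, against 1.65%, 1.69% and 1.70% in control replicates 1, 2 and 3. The ranges of the 2 groups overlap, and CKD replicate 2 is the highest library. No member rose and 1 fell in CKD by limma at an adjusted p of 0.05, where 1.33% of all 10638 tested genes rose and 0.733% fell. At an unadjusted p of 0.05 in the same limma fit, 5 members were higher and 3 lower, where 14.6% of all tested genes were higher and 7.51% lower. A limma-voom fit on the recovered fragment counts called the same single member. In the authors' deposited table, 2 members (Cox4i2 and Ndufa4l2) were higher and 3 (Ndufa10l1, Ndufs6l1 and Ndufv3) lower at a q-value of 0.05, where 6.72% of its 16690 genes were higher and 4.6% lower.

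The log2 fold change of CKD over control, on the log2(FPKM + 1) scale, was positive in 50 members and negative in 35, and its median was 0.02, against 0.05 over all tested genes. These signs turned round with the scaling of the libraries. With median-of-ratios size factors 35 members were positive and 50 negative (median -0.043), and with upper-quartile scaling 36 were positive and 49 negative (median -0.037). The typical size of a difference was small, with a median absolute log2 fold change of 0.09 in the members and 0.17 in all tested genes. A difference of at least 0.5 was seen in 4 members (4.71%), namely Ndufa10l1, Cox4i2, Ndufa4l2 and Cox6a2, and in 14.6% of all tested genes. The groups did not overlap in 12 members that were higher in CKD and in 5 that were lower, against 18.3% and 9.59% of all tested genes. The 81 members other than these 4 and Cox7a1, which was below the filter, had log2 fold changes between -0.21 and 0.38.

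Levels were also even from library to library. The highest library exceeded the lowest by a median of 1.24 times over the 86 members, against 1.48 times over all tested genes and 1.39 times over the 4668 tested genes with a mean of at least 10 FPKM. The ratio was under 1.5 in 77 of the 86 members (89.5%) and in 52.1% of all tested genes. Within CKD, replicate 2 was the highest library for 56 members and replicate 1 the lowest for 51.

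**Figure D1:**
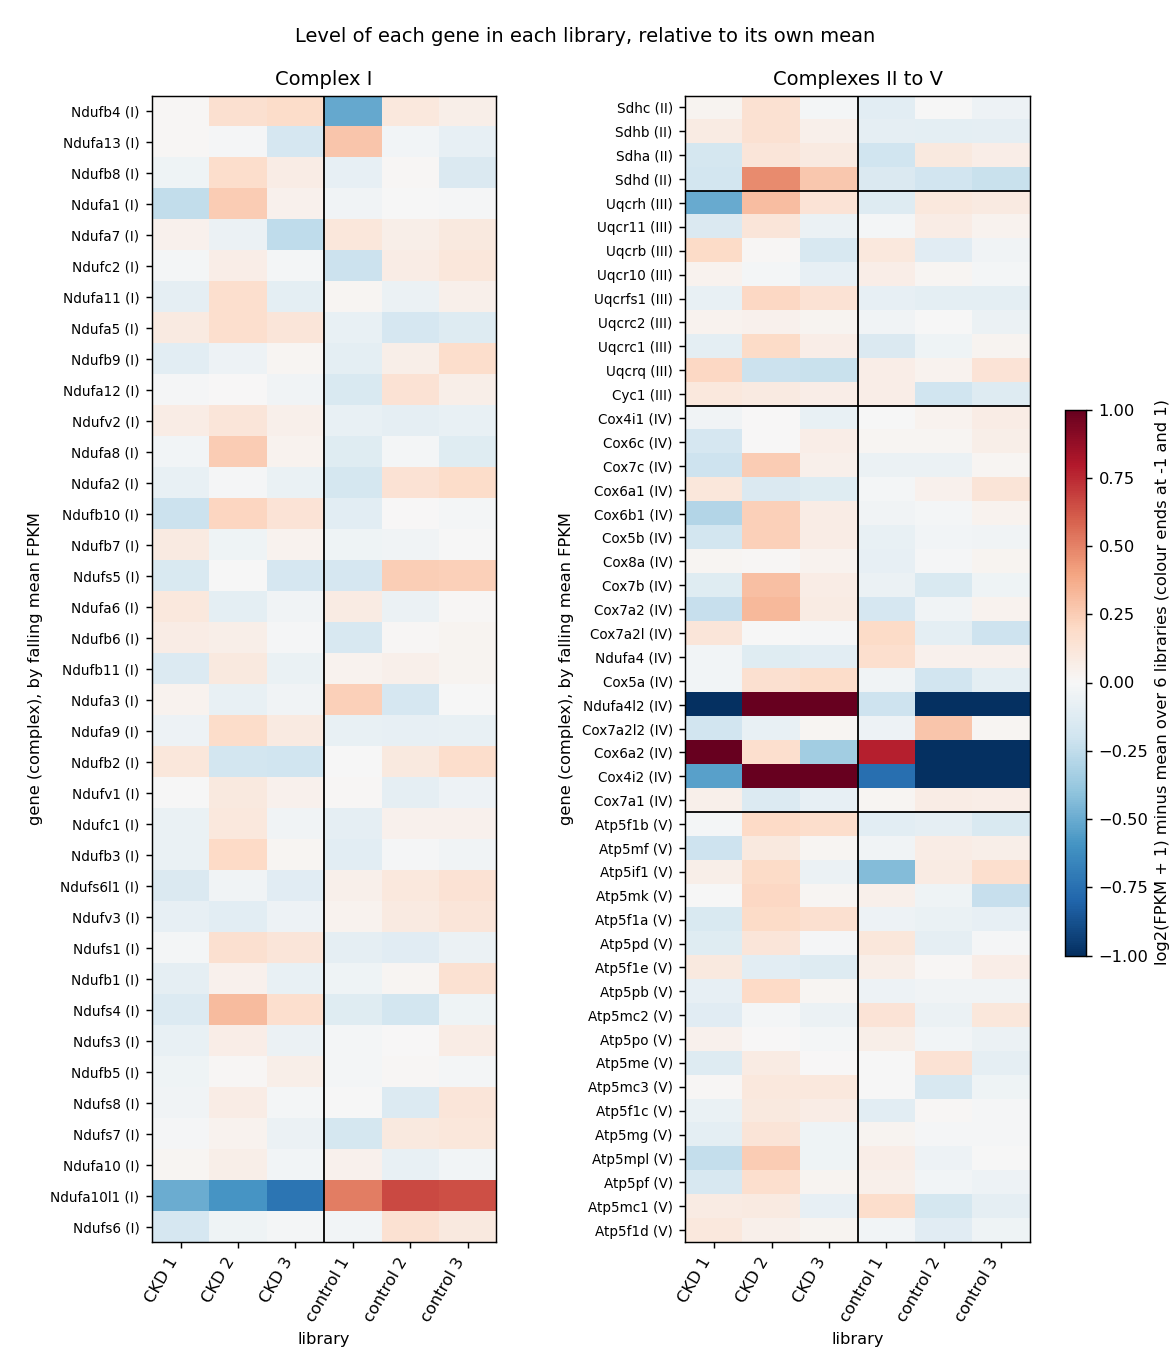
Level of 85 of the 86 genes in each library, as log2(FPKM + 1) minus the gene's own mean over the 6 libraries, with complex I at left, complexes II to V at right, and CKD libraries left of control libraries in each panel. Most rows are pale, Ndufa10l1 separates the groups, and Cox4i2, Ndufa4l2 and Cox6a2 differ strongly between single libraries.

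Complex I was the largest group and its genes were evenly split, with 19 of 38 positive, 19 negative and a median log2 fold change of -0.0042. With size factors 12 were positive and 26 negative (median -0.07). Summed over the complex, levels were 1970, 2137 and 2012 FPKM in CKD replicates 1, 2 and 3, against 1947, 2048 and 2060 FPKM in control replicates 1, 2 and 3. The groups overlap, and the highest sum stands in CKD replicate 2. The 28 accessory subunit genes other than Ndufa10l1, Ndufs6 and Ndufs6l1 had log2 fold changes between -0.21 and 0.25.

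The most abundant complex I genes were Ndufb4 and Ndufa13, accessory subunits of the membrane arm and its junction. Ndufb4 had 146, 162 and 165 FPKM in CKD replicates 1, 2 and 3, against 101, 156 and 151 FPKM in control replicates 1, 2 and 3. Control replicate 1 alone was low, the groups overlap, and the log2 fold change was 0.24 ± 0.18 (SE, limma adjusted p = 0.486). Ndufa13 had 138, 137 and 122 FPKM in CKD libraries and 167, 135 and 129.5 FPKM in control libraries. Here control replicate 1 was the high one, and the log2 fold change was -0.11 ± 0.12 (SE, limma adjusted p = 0.628).

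Ndufa5, an accessory subunit near the quinone site, had the highest fold change of the complex. It measured 80.1, 84.8 and 82.0 FPKM in CKD replicates 1, 2 and 3, against 71.6, 66.9 and 68.9 FPKM in control replicates 1, 2 and 3. All CKD libraries lay above all control libraries, by a log2 fold change of 0.25 ± 0.07 (SE), and limma's adjusted p of 0.124 missed the threshold. Ndufs5, an accessory subunit on the intermembrane side, had 50.4, 56.1 and 49.8 FPKM in CKD libraries and 49.9, 66.6 and 66.4 FPKM in control libraries. Control replicate 1 sat with the CKD libraries, and the log2 fold change was -0.21 ± 0.14 (SE, limma adjusted p = 0.401).

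Named after their values were seen, Ndufv2, Ndufs1 and Ndufa9 were the other complex I genes whose CKD libraries all lay above the control libraries. Ndufv2, a core iron-sulphur subunit, had 67.7, 69.99 and 66.6 FPKM in CKD and 61.2, 60.3 and 61.1 FPKM in control libraries, a log2 fold change of 0.16 ± 0.06 (SE, limma adjusted p = 0.217). Ndufs1, the largest core subunit, had 30.6, 35.0 and 33.9 FPKM in CKD and 29.2, 28.7 and 29.9 FPKM in control libraries. Besides Ndufa10l1, the genes whose CKD libraries all lay below the control libraries were Ndufa7, Ndufs6l1 and Ndufv3, with log2 fold changes of -0.18, -0.20 and -0.16. None of these 6 passed the test in limma.

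Ndufa10l1, a gene that resembles the accessory subunit gene Ndufa10, fell in CKD and was the only member past limma's threshold. It had 2.91, 2.68 and 2.33 FPKM in CKD replicates 1, 2 and 3, against 6.86, 7.70 and 7.65 FPKM in control replicates 1, 2 and 3, resting on 132 to 161 fragments in CKD and on 420 to 461 fragments in control libraries. Every CKD library lay below every control library, by a gap wider than the spread within either group. The log2 fold change was -1.21 ± 0.09 (SE), with a limma adjusted p of 0.0113. The direction held in CKD replicate 1, which otherwise resembled control replicate 1, and in control replicate 2, which is tagged as CKD. In the authors' deposited table the log2 fold change was -1.57 with a q-value of 1.44e-15.

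The partner gene Ndufa10, which encodes a matrix-side accessory subunit of the membrane arm, had 11.04, 11.4 and 10.7 FPKM in CKD replicates 1, 2 and 3, against 11.3, 10.3 and 10.7 FPKM in control replicates 1, 2 and 3. Its groups overlap, with a log2 fold change of 0.04 ± 0.07 (SE, limma adjusted p = 0.792). Ndufa10l1 therefore made up 17.9% to 20.9% of the summed level of the pair in CKD and 37.9% to 42.8% in control libraries. The sum of the pair ran from 13.01 to 14.1 FPKM in CKD and from 17.99 to 18.3 FPKM in control libraries. How fragments were divided between these 2 genes during counting is not known, so the level of each is uncertain. The call for Ndufa10l1 was lost (limma adjusted p between 0.0505 and 0.123) with the replicate number as a block, with the haematopoietic marker mean as a covariate, and without CKD replicate 2 or 3 or control replicate 2 or 3, while its log2 fold change stayed between -1.22 and -1.06 in these fits. With libraries grouped by the disease model tag instead of the title, it was -0.44 (limma adjusted p = 0.775).

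Ndufs6 also appears under 2 entries. The entry Ndufs6l1 (NCBI gene 679739) is the functional Ndufs6, an accessory subunit of the NADH-oxidising module, in the reference gene table, and the entry Ndufs6 (NCBI gene 29478) is listed there as the pseudogene Ndufs6-ps1. Ndufs6l1 had 30.0, 32.3 and 30.6 FPKM in CKD replicates 1, 2 and 3, against 34.5, 35.8 and 36.8 FPKM in control replicates 1, 2 and 3. The groups do not overlap, the log2 fold change was -0.20 ± 0.07 (SE), and limma's adjusted p was 0.174. In the authors' deposited table it was lower with a q-value of 0.0347, as was Ndufv3, a small accessory subunit, with a q-value of 0.0480. The pseudogene entry made up 9.12% to 10.1% of the summed level of this pair in CKD and 9.04% to 10.0% in control libraries.

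Complex II was the only complex in which all genes had a positive fold change, with a median of 0.15 on the log2 scale, although with size factors or upper-quartile scaling 3 of its 4 genes were positive. None passed the test in limma. At an unadjusted p of 0.05 it held 1 gene, Sdhb, as higher, where 14.6% of all tested genes were higher. Sdhb, the iron-sulphur subunit, had 51.1, 53.8 and 49.9 FPKM in CKD replicates 1, 2 and 3, against 45.2, 45.0 and 45.3 FPKM in control replicates 1, 2 and 3. The CKD libraries all lay above the control libraries, and the log2 fold change was 0.19 ± 0.06 (SE, limma adjusted p = 0.179).

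Sdhd, a membrane anchor that helps bind ubiquinone and haem, showed the largest difference of the complex. It had 27.9, 44.4 and 38.6 FPKM in CKD replicates 1, 2 and 3, against 28.6, 27.6 and 27.1 FPKM in control replicates 1, 2 and 3. CKD replicates 2 and 3 were high, whereas CKD replicate 1 lay within the control range, so the groups overlap. The log2 fold change was 0.38 ± 0.17 (SE, limma adjusted p = 0.268).

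Sdha, the flavoprotein that oxidises succinate, had 38.2, 47.1 and 46.2 FPKM in CKD libraries and 37.6, 46.4 and 45.3 FPKM in control libraries. Replicate 1 was the low library in both groups, and the log2 fold change was 0.02 ± 0.12 (SE, limma adjusted p = 0.931). Sdhc, the other membrane anchor, had 62.3, 68.0 and 60.4 FPKM in CKD and 56.8, 60.9 and 59.1 FPKM in control libraries, with overlapping groups.

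In complex III, 5 of 9 genes were positive, none passed the test in limma at an adjusted or an unadjusted p of 0.05, and the median log2 fold change was 0.03 (-0.04 with size factors). The electron-carrying subunits had the highest log2 fold changes of the complex. Uqcrfs1, the Rieske iron-sulphur protein, had 43.1, 52.7 and 50.5 FPKM in CKD replicates 1, 2 and 3, against 42.9, 42.4 and 42.5 FPKM in control replicates 1, 2 and 3. The groups do not overlap, but CKD replicate 1 lay just above the highest control library, and the log2 fold change was 0.19 ± 0.09 (SE, limma adjusted p = 0.306). Cyc1, which is cytochrome c1, had 27.4, 27.1 and 26.7 FPKM in CKD and 26.7, 22.1 and 23.2 FPKM in control libraries, a log2 fold change of 0.17 ± 0.09 (SE, limma adjusted p = 0.317).

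The 5 small subunits of complex III had fold changes between -0.16 and 0.03 on the log2 scale. Uqcrh, the hinge protein bound to cytochrome c1 and the most abundant gene of the complex, had 106, 187 and 166 FPKM in CKD replicates 1, 2 and 3, against 138, 163 and 161 FPKM in control replicates 1, 2 and 3. CKD replicate 1 was the lowest library and CKD replicate 2 the highest, so the spread within CKD was wider than the difference between the groups. Uqcrq, a small subunit of the membrane part, went the other way, with 40.9, 30.3 and 30.1 FPKM in CKD and 37.1, 36.2 and 39.0 FPKM in control libraries. CKD replicates 2 and 3 were its lowest libraries and CKD replicate 1 its highest. Uqcr11 had 63.3, 76.2 and 67.4 FPKM in CKD and 69.1, 73.8 and 71.8 FPKM in control libraries, and its groups overlap.

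**Figure D2:**
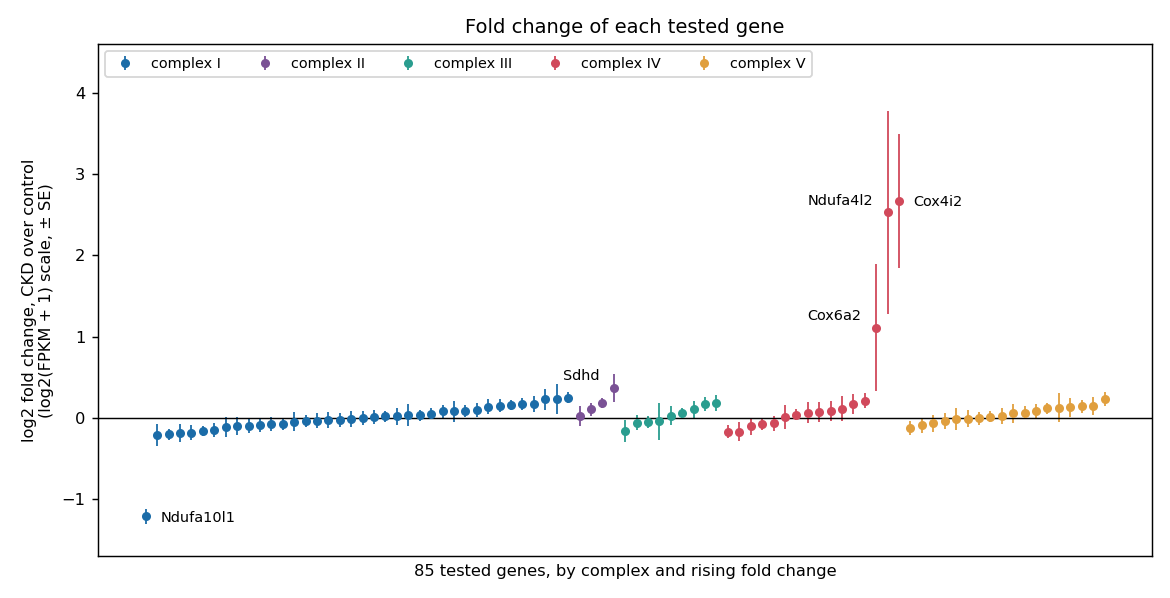
Log2 fold change of CKD over control on the log2(FPKM + 1) scale for the 85 tested genes, ordered by complex and by rising value, with bars of 1 standard error from limma. Apart from Ndufa10l1 at -1.21 and from Cox4i2, Ndufa4l2 and Cox6a2, whose errors are wide, all points lie between -0.21 and 0.38.

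Complex IV had the most abundant subunit genes and also the widest range of fold changes. No gene of the complex passed the test in limma. At an unadjusted p of 0.05 in that fit, 1 was higher and 0 lower, beside 14.6% and 7.51% of all tested genes. Of 16 tested genes 11 were positive, and the median log2 fold change was 0.07 (0.0029 with size factors). Cox4i1, the general form of subunit 4, was the most abundant member of all complexes and had 317, 326 and 308 FPKM in CKD replicates 1, 2 and 3, against 324, 332 and 342 FPKM in control replicates 1, 2 and 3. Its groups overlap, and the log2 fold change was -0.07 ± 0.07 (SE, limma adjusted p = 0.616). Cox6c, next in level, had 223, 252 and 264 FPKM in CKD and 255, 255 and 261 FPKM in control libraries, again with overlapping groups.

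The 11 genes of complex IV that form its common subunits had log2 fold changes between -0.17 and 0.21. Cox5a, a matrix-side subunit named after its values were seen, was the highest, with 83.2, 94.5 and 96.4 FPKM in CKD and 82.6, 74.1 and 79.0 FPKM in control libraries (limma adjusted p = 0.240). Ndufa4, a subunit of complex IV, was the lowest. It had 94.1, 88.1 and 88.8 FPKM in CKD replicates 1, 2 and 3, against 108, 98.4 and 98.7 FPKM in control replicates 1, 2 and 3. All CKD libraries lay below all control libraries, by a log2 fold change of -0.17 ± 0.07 (SE), and limma's adjusted p was 0.264.

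The alternative form of subunit 4, Cox4i2, known from lung and from the response to low oxygen, differed between single libraries far more than its partner. It had 1.48, 18.5 and 14.5 FPKM in CKD replicates 1, 2 and 3, against 1.14, 0.269 and 0.0732 FPKM in control replicates 1, 2 and 3. Only CKD replicates 2 and 3 were high, and CKD replicate 1, with 61 fragments, lay just above control replicate 1, with 57 fragments. The value of control replicate 3 rests on 3 fragments. The log2 fold change was 2.67 ± 0.82 (SE, limma adjusted p = 0.148), and in the authors' deposited table it was 4.43 with a q-value of 8.17e-04. Cox4i2 made up 0.465%, 5.36% and 4.51% of the summed level of the pair in CKD replicates 1, 2 and 3, against 0.350%, 0.0807% and 0.0214% in control replicates 1, 2 and 3, so Cox4i1 was the main form in every library.

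Ndufa4l2, a relative of Ndufa4 known to be induced by hypoxia-inducible factors, had 0.975, 39.1 and 31.7 FPKM in CKD replicates 1, 2 and 3, against 3.96, 0.738 and 0.558 FPKM in control replicates 1, 2 and 3. CKD replicates 2 and 3 were high, CKD replicate 1 lay below control replicate 1, and the groups overlap. The log2 fold change was 2.53 ± 1.247 (SE, limma adjusted p = 0.297), and in the authors' deposited table it was 3.66 with a q-value of 0.0151. In CKD replicates 2 and 3 it reached 30.7% and 26.3% of the summed level of Ndufa4 and Ndufa4l2, against 3.55% or less in each other library.

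The same 2 libraries, CKD replicates 2 and 3, were the highest for all 16 haematopoietic markers and for 4 of 5 muscle markers. They were also the highest for 2 of 3 fat cell markers and for 1 of 5 endothelial markers. Of the genes so counted, Myh3, Plin1 and Cdh5 did not pass 0.0609, 0.0537 and 0.153 FPKM in any library. The order of libraries is uncertain at such low values. The muscle markers summed to 19.3, 42.9 and 46.6 FPKM in CKD replicates 1, 2 and 3, against 4.86, 40.4 and 33.8 FPKM in control replicates 1, 2 and 3. Myod1, a regulator of the muscle lineage, had 4.33 and 4.04 FPKM in CKD replicates 2 and 3 and at most 0.0133 FPKM elsewhere, while Acta1, skeletal muscle actin, had 18.5, 3.76 and 5.98 FPKM in CKD and 4.46, 39.2 and 32.6 FPKM in control libraries. The sum of the muscle markers thus overlaps between the groups, and Acta1 was highest in control replicates 2 and 3. Des, another muscle marker, had 33.7 and 36.2 FPKM in CKD replicates 2 and 3 and at most 1.20 FPKM elsewhere. Of the fat cell markers, Fabp4, a gene of fat cells and macrophages, had 95.1 and 93.01 FPKM in CKD replicates 2 and 3 and at most 4.23 FPKM elsewhere, while Plin1 and Lep did not pass 0.0537 FPKM. The 5 endothelial markers summed to 0.405, 0.298 and 0.329 FPKM in CKD replicates 1, 2 and 3, against 0.656, 2.42 and 2.40 FPKM in control replicates 1, 2 and 3, most of it from Tek. The 18 glycolysis genes found summed to 1900, 4285 and 4145 FPKM in CKD replicates 1, 2 and 3. In control replicates 1, 2 and 3 they summed to 2366, 2387 and 2395 FPKM. For 16 of the 18 the highest libraries were CKD replicates 2 and 3. How many of all tested genes share that order was not counted, so these list counts have no background. On a looser measure, CKD replicates 2 and 3 both lay above control replicates 2 and 3 in 5267 of all 10638 tested genes. With the haematopoietic marker mean as a covariate, the log2 fold change of Cox4i2 was 0.55 (limma adjusted p = 0.694) and that of Ndufa4l2 was -0.73 (adjusted p = 0.656). That mean was itself highest in CKD replicates 2 and 3, where both genes were high, so this fit cannot separate it from their pattern. The part of these other cell types in the level of both genes was not tested.

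Cox6a2, the heart and skeletal muscle form of subunit 6a, followed another order. It had 19.7, 5.49 and 3.55 FPKM in CKD replicates 1, 2 and 3, against 8.87, 1.55 and 1.40 FPKM in control replicates 1, 2 and 3. Replicate 1 was the highest library in both groups, and the groups overlap. The log2 fold change was 1.11 ± 0.78 (SE, limma adjusted p = 0.441). Its general partner Cox6a1 had 212, 177 and 180.1 FPKM in CKD and 193, 201 and 214 FPKM in control libraries, and Cox6a2 made up 1.93% to 8.52% of the pair in CKD and 0.647% to 4.40% in control libraries.

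Of the remaining forms, Cox7a1, the heart and muscle form of subunit 7a, stayed at or below 0.360 FPKM in every library and was not tested. Cox7a2, its general partner, had 98.6, 145 and 123 FPKM in CKD replicates 1, 2 and 3, against 103, 113 and 119 FPKM in control replicates 1, 2 and 3. CKD replicates 2 and 3 were the highest libraries and CKD replicate 1 the lowest. Cox7a2l, a factor that joins complexes III and IV into supercomplexes, had 108, 99.5 and 99.0 FPKM in CKD and 114, 93.2 and 85.9 FPKM in control libraries, and its near copy Cox7a2l2 had 9.34, 10.2 and 10.9 FPKM in CKD and 10.4, 13.3 and 10.9 FPKM in control libraries. Fragments may be shared between these 2 genes too, so their separate levels are uncertain.

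The subunits for which 1 form was measured differed little. Cox6b1, which faces the intermembrane space, had 136, 196 and 175 FPKM in CKD replicates 1, 2 and 3, against 162, 164 and 170.3 FPKM in control replicates 1, 2 and 3. As for Cox7a2, CKD replicate 1 was low and CKD replicates 2 and 3 high. Cox8a, the general form of the smallest subunit, was even, with 135, 134 and 136 FPKM in CKD and 125, 132 and 136 FPKM in control libraries. Cox6b2, Cox8b and Cox8c, forms known from testis or muscle, had no protein-coding row in the deposited gene table.

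**Figure D3:**
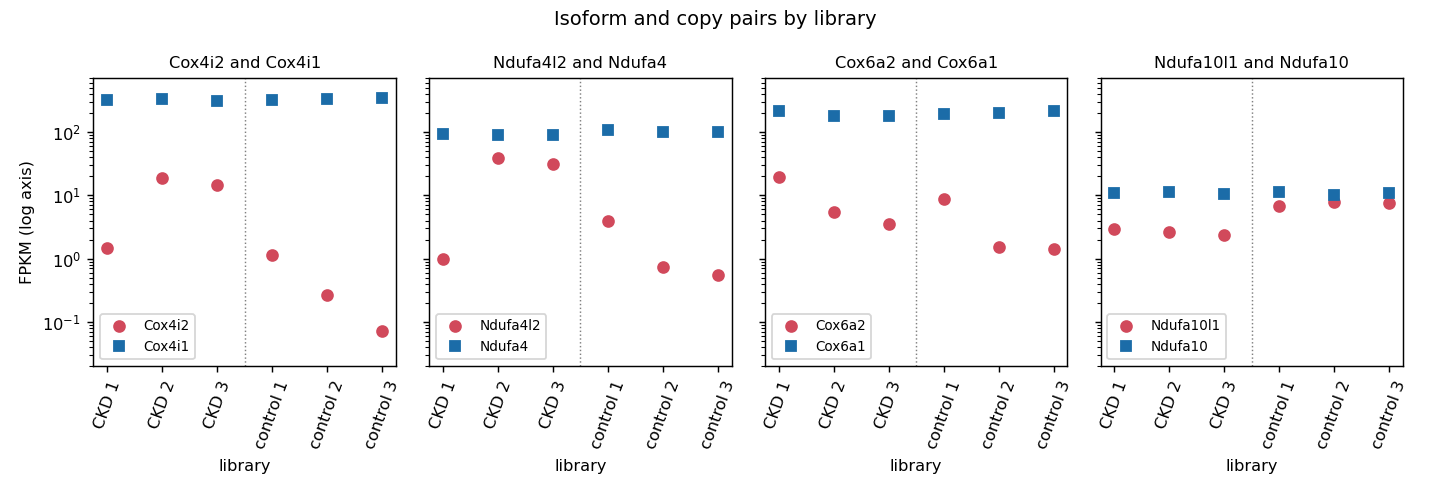
FPKM on a log axis in each library for 4 pairs of related genes, with CKD libraries left of the dotted line and control libraries right of it, circles for the alternative form or copy and squares for the general gene. Cox4i2 and Ndufa4l2 are high in CKD replicates 2 and 3 alone, Cox6a2 is highest in replicate 1 of each group, Ndufa10l1 is lower in all 3 CKD libraries, and the squares stay level.

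Complex V had 11 positive and 7 negative genes, with a median log2 fold change of 0.04 (-0.03 with size factors). None passed the test in limma. At an unadjusted p of 0.05 in that fit, 1 was higher and 0 lower, beside 14.6% and 7.51% of all tested genes. In the catalytic F1 head, 4 of 5 genes were positive, with size factors too. Atp5f1b, the beta subunit with the catalytic sites and the most abundant gene of the complex, had 301, 352 and 345 FPKM in CKD replicates 1, 2 and 3, against 284, 287 and 275 FPKM in control replicates 1, 2 and 3. All CKD libraries lay above all control libraries, by a log2 fold change of 0.23 ± 0.09 (SE, limma adjusted p = 0.214). Atp5f1a, the alpha subunit, and Atp5f1d, the delta subunit of the central stalk, were also positive, with log2 fold changes of 0.13 and 0.12. Atp5f1e, the epsilon subunit of the central stalk, was the only negative gene of the 5 in F1, with 144, 125 and 122 FPKM in CKD and 139, 135 and 140.3 FPKM in control libraries.

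In the membrane part, Atp5mf, which encodes subunit f, had 221, 273 and 258 FPKM in CKD replicates 1, 2 and 3, against 249, 269 and 266 FPKM in control replicates 1, 2 and 3, with overlapping groups. Atp5mk, a small subunit linked to dimers of the enzyme, had 171, 198 and 174 FPKM in CKD and 177, 167 and 146 FPKM in control libraries, a log2 fold change of 0.15 ± 0.11 (SE, limma adjusted p = 0.455). The 4 genes of the peripheral stalk (Atp5pb, Atp5pd, Atp5pf and Atp5po) had log2 fold changes between -0.01 and 0.09. Atp5if1, the inhibitor of ATP hydrolysis by the enzyme, had 184, 201 and 169.6 FPKM in CKD and 130.2, 187 and 198 FPKM in control libraries. Control replicate 1 was low as for Ndufb4, and the log2 fold change was 0.13 ± 0.18 (SE, limma adjusted p = 0.718).

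Atp5mc1, Atp5mc2 and Atp5mc3 encode the same mature protein, the c subunit of the rotating ring, with different import sequences. Atp5mc2 was the most abundant, with 109, 117 and 114 FPKM in CKD replicates 1, 2 and 3, against 129.8, 113 and 128 FPKM in control replicates 1, 2 and 3. Atp5mc3 had 94.7, 101 and 101 FPKM in CKD and 93.3, 83.7 and 90.9 FPKM in control libraries, and its CKD libraries all lay above the control libraries (log2 fold change 0.14 ± 0.08 SE, limma adjusted p = 0.328). As a share of the 3 genes, Atp5mc2 took 41.9% to 42.9% in CKD and 45.7% to 47.6% in control libraries, and Atp5mc3 took 36.3% to 38.0% in CKD and 32.9% to 34.2% in control libraries. Both shares separate the groups, while Atp5mc1 overlaps at 19.1% to 21.8% in CKD and 18.7% to 21.4% in control libraries. The summed level of the 3 genes overlaps too, at 261 to 275 FPKM in CKD and 244 to 284 FPKM in control libraries, and the shares were looked at after the values were known and carry no test.

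Because replicate 1 of each group stood apart, the members were also read without CKD replicate 1 and without both first replicates. Without CKD replicate 1, limma called 4 members higher (Cox4i2, Ndufa4l2, Sdhd and Uqcrfs1) and 2 lower (Ndufa10l1 and Uqcrq), where 10.7% of all tested genes were called higher and 4.35% lower. Without both first replicates, with 2 libraries a group, 20 members were called higher and 11 lower, where 34.7% of all tested genes were called higher and 20.3% lower. These are 23.5% and 12.9% of the 85 tested members, below the share of all tested genes in both directions. Within each group the 2 remaining libraries are much alike, and whether they come from separate animals is not stated.

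In this reading, in which differences between complexes were not tested, complex I had 6 genes higher and 7 lower. Ndufs4, an accessory subunit named after its values were seen, had the highest log2 fold change of them. It had 35.8 and 32.2 FPKM in CKD replicates 2 and 3, against 25.0 and 27.7 FPKM in control replicates 2 and 3. CKD replicate 1 had 25.8 FPKM of Ndufs4 and control replicate 1 had 26.2 FPKM. In complexes II and III, Sdhb, Sdhd, Cyc1 and Uqcrfs1 were called higher and Uqcrq lower. Complex IV had 6 genes higher and 2 lower, and complex V had 4 higher and 1 lower. CKD replicate 1 set against control replicate 1 gave other values, with 38 of the 85 tested members higher in CKD. In that pair of libraries the log2 difference was -0.04 for Sdhd, 0.21 for Cox4i2 and -1.33 for Ndufa4l2.

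**Figure D4:**
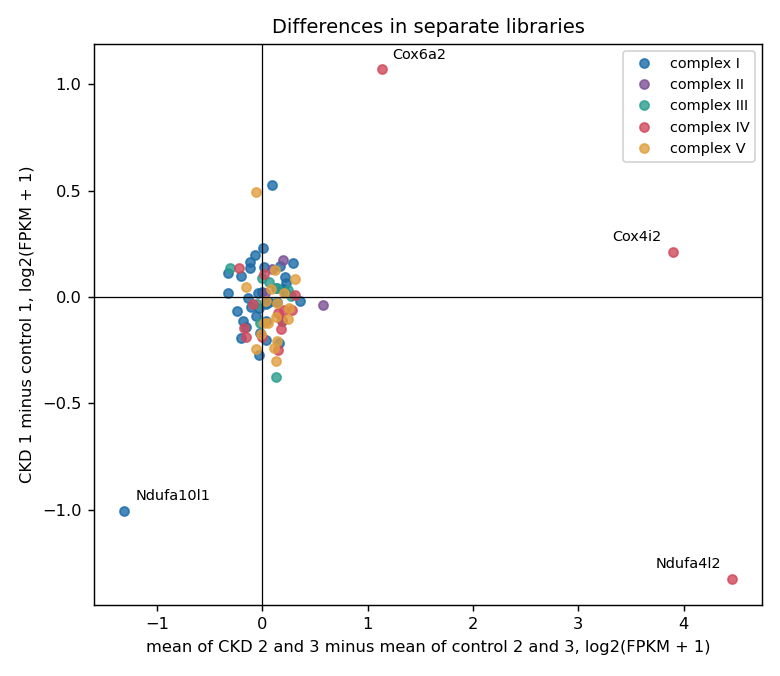
Difference of CKD replicate 1 minus control replicate 1 (vertical) and of the mean of CKD replicates 2 and 3 minus the mean of control replicates 2 and 3 (horizontal), both in log2(FPKM + 1), for the 85 tested genes coloured by complex. Ndufa10l1 is negative on both axes and Cox6a2 positive on both, while Cox4i2 and Ndufa4l2 are far to the right and do not show that difference on the vertical axis.

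No gene of the other respiratory lists passed the test either. The 13 protein genes of mitochondrial DNA summed to 51358, 53576 and 51667 FPKM in CKD replicates 1, 2 and 3, against 52526, 56611 and 54674 FPKM in control replicates 1, 2 and 3. None passed the test in limma at an adjusted or an unadjusted p of 0.05, 3 were positive and 10 negative, and their median log2 fold change was -0.07 (-0.14 with size factors). ND4L and ND4, complex I subunits, had the highest log2 fold changes, at 0.15 and 0.08. ND6, of complex I, and COX3, of complex IV, had the lowest, at -0.18 and -0.11.

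Assembly factors, which build the complexes without staying in them, also had no called gene, in limma, among 18 tested for complex I, 4 for complex II, 9 for complex III, 21 for complex IV and 5 for complex V. At an unadjusted p of 0.05 in that fit, 6 of these 57 genes were higher and 6 lower, beside 14.6% and 7.51% of all tested genes. Ndufaf4, a complex I factor, had 8.72, 8.58 and 9.26 FPKM in CKD replicates 1, 2 and 3, against 7.28, 6.27 and 5.66 FPKM in control replicates 1, 2 and 3. Its groups do not overlap, and the log2 fold change was 0.42 ± 0.10 (SE, limma adjusted p = 0.0992). Ndufaf6, another complex I factor, had 6.004, 4.95 and 3.89 FPKM in CKD and 3.75, 2.72 and 2.65 FPKM in control libraries, also without overlap.

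Among the complex IV factors, the copper chaperone Cox17 had 42.2, 46.4 and 45.4 FPKM in CKD replicates 1, 2 and 3, against 38.0, 35.6 and 36.7 FPKM in control replicates 1, 2 and 3, a log2 fold change of 0.27 ± 0.07 (SE, limma adjusted p = 0.118). Surf1, a haem-insertion factor, had 6.76, 7.70 and 5.98 FPKM in CKD and 8.53, 8.79 and 10.6 FPKM in control libraries, a log2 fold change of -0.40 ± 0.12 (SE, limma adjusted p = 0.146). Cox14, an early factor of COX1 synthesis, was lower by a log2 fold change of -0.31, and Coa5 higher by 0.36, neither past the threshold. For complex III, Ttc19 and Uqcc3 had the lowest values (log2 fold changes of -0.26 and -0.23) and Uqcc4 and Uqcc5 the highest (0.17 and 0.12). For complex V, Tmem70 and Atpaf1 had the highest values (0.25 and 0.16) and Fmc1 and Tmem242 the lowest (-0.29 and -0.23). All 4 complex II factors were negative, between -0.24 and -0.05.

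Of the 16 tested genes for mobile carriers and ubiquinone synthesis, none passed the test in limma. At an unadjusted p of 0.05 in that fit, 2 were higher and 0 lower, beside 14.6% and 7.51% of all tested genes. Cycs, somatic cytochrome c, had 76.0, 84.4 and 82.3 FPKM in CKD replicates 1, 2 and 3, against 83.6, 48.3 and 46.0 FPKM in control replicates 1, 2 and 3. Control replicate 1 lay with the CKD libraries, and the log2 fold change was 0.49 ± 0.24 (SE, limma adjusted p = 0.285). Among the 12 tested regulators of mitochondrial gene expression, 10 were positive (median 0.16, or 0.10 with size factors), where 6321 of all 10638 tested genes were positive. None was called in limma, with 1 higher and 0 lower at an unadjusted p of 0.05, beside the same shares of all tested genes. Tfam, which packages mitochondrial DNA, had 10.3, 13.4 and 12.2 FPKM in CKD and 9.53, 8.51 and 9.51 FPKM in control libraries (limma adjusted p = 0.163). Ppargc1a and Ppargc1b, the co-activators of mitochondrial biogenesis, did not pass 0.428 FPKM in any library.

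The tricarboxylic acid cycle, which supplies NADH and succinate, had 13 of 17 tested genes positive (10 with size factors) and a median of 0.10. Over all 10638 tested genes, 6321 were positive. The cycle had no call in limma, with 3 higher and 2 lower at an unadjusted p of 0.05, beside 14.6% and 7.51% of all tested genes. Fh, fumarase, had 23.8, 29.5 and 26.9 FPKM in CKD replicates 1, 2 and 3, against 19.9, 20.3 and 20.5 FPKM in control replicates 1, 2 and 3. Sucla2, a succinyl-CoA ligase subunit, had 44.5, 39.1 and 39.3 FPKM in CKD and 52.0, 55.2 and 53.4 FPKM in control libraries. Neither gene's groups overlap, with limma adjusted p-values of 0.104 and 0.0816. Pdhx and Pdha1, listed with the cycle as genes of pyruvate dehydrogenase, had log2 fold changes of 0.53 and -0.20 (limma adjusted p = 0.194 and 0.163). The groups of Pdhx overlap and those of Pdha1 do not. The 17 tested glycolysis genes had a median log2 fold change of 0.50 with none called in limma. At an unadjusted p of 0.05 in that fit, 3 were higher and 1 lower, beside the same shares of all tested genes. Pfkl, the liver form of phosphofructokinase, had 16.7, 45.2 and 43.1 FPKM in CKD and 14.4, 10.4 and 9.94 FPKM in control libraries.

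**Figure D5:**
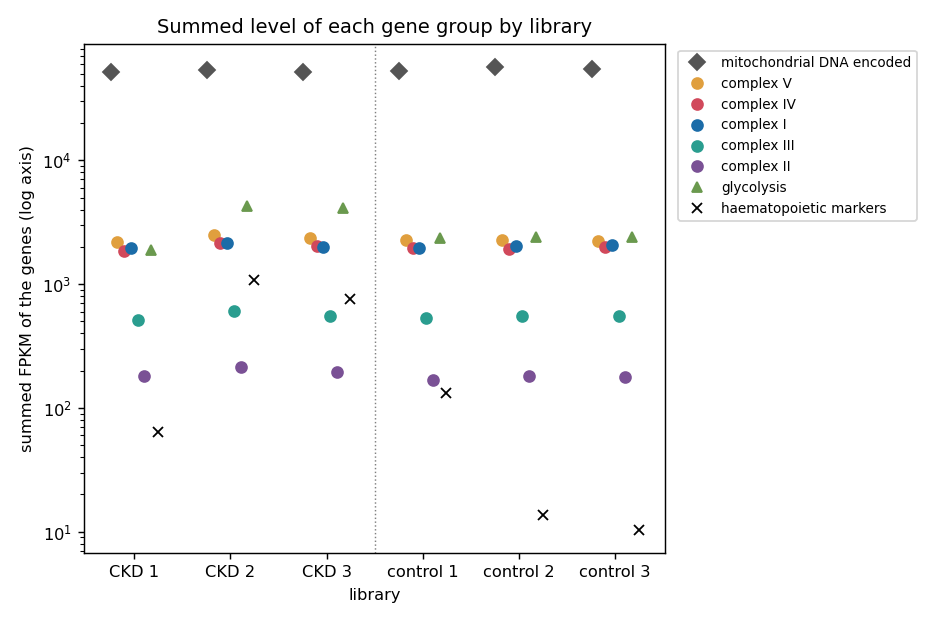
Summed FPKM on a log axis of the genes of each complex, of the 13 genes of mitochondrial DNA, of 18 glycolysis genes and of 16 haematopoietic markers in each library, with CKD libraries left of the dotted line and control libraries right of it, and points spread sideways for sight only. The sums of the complexes differ little on this axis. Those of complexes II, IV and V are nonetheless highest in CKD replicates 2 and 3. Complex IV, for example, has 2163 and 2035 FPKM there and at most 1997 FPKM in the other libraries. Glycolysis and haematopoietic sums are highest in the same libraries by a wider margin.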

How the data were processed

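RNA was measured by stranded, poly-A selected sequencing in 6 libraries, 3 of CKD and 3 of control cells. The rat build mRatBN7.2 and the tools HISAT2 2.1.0 and HTSeq 0.11.2 stand in the submitters' processing notes, beside FastQC 0.11.9, SAMtools 1.9, DESeq 1.34.1 and DESeq2 1.22.2, with neither order nor settings. The authors deposited 1 table of 16690 genes that holds, per the file headers, FPKM for every library beside group means of normalized counts, log2 fold changes, p-values and q-values. Whether counting used strand is not given in the sources used here. FPKM values from genes with near copies depend on how shared fragments were counted.

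The comparison of CKD with control used log2(FPKM + 1) in limma 3.58.1 under R 4.3.3. Its moderated test was two-sided with a mean-variance trend and without covariates, and p-values were adjusted over all tested genes (Benjamini-Hochberg, 0.05). A gene needed 1 FPKM or more in 3 or more libraries, which kept 10638 and left out 6052. The pseudocount of 1 understates the change of low genes. A count model had been planned for a table of whole counts, which this is not. Fragment counts were recovered from FPKM and the group means, all 100140 values came out whole within 0.01, and these gave the depth and the limma-voom alternatives. At median gene length, 3 fragments were worth 0.0198 to 0.0270 FPKM, which covers counting error only. The fit was also run on simulated counts with an equal spread in all libraries, whereas replicate 1 of each group stood apart in the data. No result rests on that run.

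Libraries were grouped by column code and title. Library names share a start in CKD replicates 1 and 3 and in control replicates 1 and 2. No pair of libraries agreed within sampling noise, and each counted as 1 replicate. The ratio of chi-square to its degrees of freedom was 5.77 for control replicates 2 and 3. It was 14.8 for CKD replicates 2 and 3 and at least 147 for every other pair. Such a ratio cannot tell separate animals from separate preparations of 1 culture. The members, gene lists and alternatives were chosen with earlier results of these data known. Named members were those called, the 2 most abundant of each complex, the 2 with the highest and the 2 with the lowest fold change of each complex, and sets of isoforms, 35 in all. From each other list the 2 highest and 2 lowest fold changes were picked, but not all of these genes are reported here. Other genes named were chosen after their values were seen. All 86 gene identifiers were found in a RefSeq gene table of assembly GRCr8, 2 of them under another symbol. That build differs from the files' build, so no coordinates are given, and no sequences were used. For 1 gene counted in the set, no value is reported here by name.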

Additional observations from a re-analysis of the deposited data

How the results depend on the processing

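The counts of called genes depended on the libraries and the tool. Without the filter on low values 81 genes were higher. Limma-voom called 56 genes higher and 42 lower, and with sample quality weights 3854 and 2129, with 20 members higher and 11 lower. Leaving out each replicate in turn gave 1 to 1139 genes higher, 5 to 546 lower, 0 to 4 members higher and 0 to 2 lower. Without the libraries with conflicting tags 237 genes and 1 member (Cox4i2) were higher. Without both first replicates 3689 genes were higher and 2162 lower, with 20 and 11 members. Grouping by the disease model tag gave 0 genes higher, 0 lower and 0 members lower in limma, with 641 genes at an unadjusted p of 0.05. With the haematopoietic marker mean as a covariate 7 genes were higher, 13 lower and 0 members lower, with 1 member at an unadjusted p of 0.05. The causes were not tested.

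The deviations of same-numbered libraries from their group means had correlations of 0.036, -0.031 and 0.109. Of 6 libraries, 4 correlated best with their own number. These values do not settle whether the numbers pair the samples, and the main fit treated the libraries as unpaired. With the replicate block 60 genes were higher, 28 lower and 0 members lower (Ndufa10l1 at a limma adjusted p of 0.0505).

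The median log2 fold change of the members was -0.043 with size factors and -0.037 with upper-quartile scaling, and the median of all genes was -0.0048 and 0.00049 there. Of 578 values of named members under 17 alternatives, 482 kept their direction and side of the threshold, 37 newly passed it, 7 (all of Ndufa10l1) no longer did and 52 changed sign. Those 52 concerned 21 members, none called in the main comparison, and are given here on the log2 scale. With size factors Sdha was -0.043, Cox6b1 -0.054, Cox8a -0.024 and Atp5mc1 -0.0088, and with upper-quartile scaling Sdha -0.037, Cox6b1 -0.048, Cox8a -0.018 and Atp5mc1 -0.0028. With quality weights Uqcrh was 0.082, Cox6c 0.011 and Atp5if1 -0.081. Without the libraries with conflicting tags Uqcrh was 0.24, Uqcr11 0.025, Atp5mf 0.046 and Atp5mc1 -0.042. Without both first replicates Uqcrh was 0.13 and Atp5if1 -0.058. With groups by the tag Ndufs5 was 0.051, Uqcrh 0.37, Uqcr11 0.089, Cyc1 -0.027, Cox6c 0.062, Cox7a2l2 0.15, Atp5mf 0.13, Cox6a2 -0.90, Cox7a2l -0.068 and Atp5mc1 -0.11. With the covariate Sdhd was -0.0075, Sdha -0.039, Uqcrq 0.11, Ndufa4l2 -0.73, Atp5mk -0.017, Atp5f1e 0.038, Cox6a1 0.099, Cox6b1 -0.25, Cox7a2 -0.10 and Atp5mc1 -0.032. Leaving out each replicate gave ranges of -0.060 to 0.24 for Atp5if1, -0.015 to 0.16 for Atp5mc1, -0.13 to 0.024 for Atp5mf, -0.10 to 0.16 for Cox6b1, -0.11 to 0.0046 for Cox6c, -0.019 to 0.26 for Cox7a2, -0.012 to 0.19 for Cox7a2l, -0.069 to 0.12 for Sdha, -0.13 to 0.0027 for Uqcr11 and -0.21 to 0.20 for Uqcrh. Of 85 medians of single complexes, 69 moved by less than the spread between replicates and 16 by more. The sign changed in 15 of the 85, which concerned 4 complexes. A move within the spread could change the sign, as for complex V, from 0.041 to -0.026 with size factors.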

Other observations

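Genes of other mitochondrial machinery, listed after their values were seen, had no called gene either. Of 74 tested genes of the mitochondrial ribosome, which makes the subunits encoded in mitochondrial DNA, 52 had a positive and 22 a negative log2 fold change of CKD over control, with a median of 0.07. None passed the test in limma, and at an unadjusted p of 0.05 in that fit 17 were higher and 4 lower, where 14.6% of all tested genes were higher and 7.51% lower. With size factors 37 were positive and 37 negative. Of 22 tested genes of the import channels, which bring the nuclear-encoded subunits into the organelle, 16 were positive and 6 negative, and 12 and 10 with size factors. None was called in limma, with 7 higher and 2 lower at an unadjusted p of 0.05, beside the same shares of all tested genes.

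A few genes known to respond to low oxygen had the library pattern of Cox4i2 and Ndufa4l2. They were also chosen after their values were seen, so the likeness carries no test. CKD replicates 2 and 3 both lay above control replicates 2 and 3 in 5267 of all 10638 tested genes. That count leaves replicate 1 of each group aside, so it is looser than being highest among all libraries. The share of all tested genes with the stricter pattern was not counted. A part of low oxygen in these levels was not tested. Bnip3, a mitophagy receptor, had 42.4, 138 and 124 FPKM in CKD replicates 1, 2 and 3, against 60.3, 60.4 and 60.3 FPKM in control replicates 1, 2 and 3. Higd1a, a small protein of the inner mitochondrial membrane, had 31.3, 78.9 and 65.9 FPKM in CKD and 31.3, 33.3 and 28.1 FPKM in control libraries. Car9, a carbonic anhydrase of the cell surface, had 8.44, 20.8 and 21.0 FPKM in CKD and 6.34, 4.65 and 4.75 FPKM in control libraries. CKD replicates 2 and 3 were the highest libraries for all 3 genes, and none passed the test in limma, with adjusted p-values of 0.492, 0.240 and 0.108.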
